A study of Mus musculus with 33 samples.

Results

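The comparison set RepB against WT mouse embryonic stem (ES) cells at days 8 and 10 of differentiation, after the embryoid bodies had been plated. Its members were chosen by label alone: the 4 RNA libraries of these days, of 12 RNA libraries and 33 samples in the whole series, with 1 library per genotype and day. RepB names a genotype after Repeat B of Xist, the long noncoding transcript by which female mammals shut down 1 of their X chromosomes. Neither the edit nor the allele that carries it is described in the labels. WT and RepB cells were both labelled with the strain CAST/Ei x 129/Sv/Jae. Both lines had grown on irradiated fibroblast feeders with LIF, were freed of feeders, formed embryoid bodies in suspension and were then settled on gelatin. Each genotype is 1 line followed through 1 time course, so a difference may belong to the line, the culture or the genotype, and these cannot be told apart.

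Embryoid bodies are cell aggregates in which ES cells, once LIF is withdrawn, leave pluripotency and pass through a primitive streak-like stage into mesoderm, endoderm and ectoderm. On gelatin they spread and give beating heart muscle, vessels, primitive blood, visceral endoderm, fibroblast-like mesenchyme and some neural tissue. Which of these a culture makes differs between lines and between runs, and bulk RNA reads the mixture. In bulk RNA, fewer cells of a type and less RNA per cell cannot be told apart. The lineage genes below are therefore described as levels in a mixed culture.

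The WT libraries held 7763633 counts at day 8 and 10200004 at day 10, and the RepB libraries 3594551 and 3745822. WT was thus 2.16 times deeper at day 8 and 2.72 times deeper at day 10, and 3 counts corresponded to 0.294 to 0.386 counts per 1000000 counts of the library (CPM) in WT and to 0.801 to 0.835 CPM in RepB. The labelled ES cells no longer had the marker levels of the ES state: Zfp42, an ES cell marker, stood at 33.6 and 21.7 CPM in WT against 500 CPM at day 0, and at 54.8 and 41.9 CPM in RepB against 665 CPM. One library stood apart. The deviation of WT day 8 from the mean of the 10 libraries of days 5 to 10 went with exon length across 10880 autosomal genes (Spearman -0.48, against -0.18 to 0.35 in the other 9), with short genes high and long genes low. The log2 RepB/WT ratio at day 8 therefore moved from a median of -0.42 for genes under 1000 bases to 0.36 for genes over 8000 bases, while at day 10 the same medians were -0.08 and 0.03. Across 10778 autosomal genes the Spearman correlation of this ratio with length was 0.49 at day 8 and 0.12 at day 10, a description only, since genes share their library. It was -0.08, -0.30 and -0.24 at days 5, 6 and 7. Comparisons of days 8 and 10 with days 5 to 7 therefore span a change of sign in this trend.

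**Figure D1:**
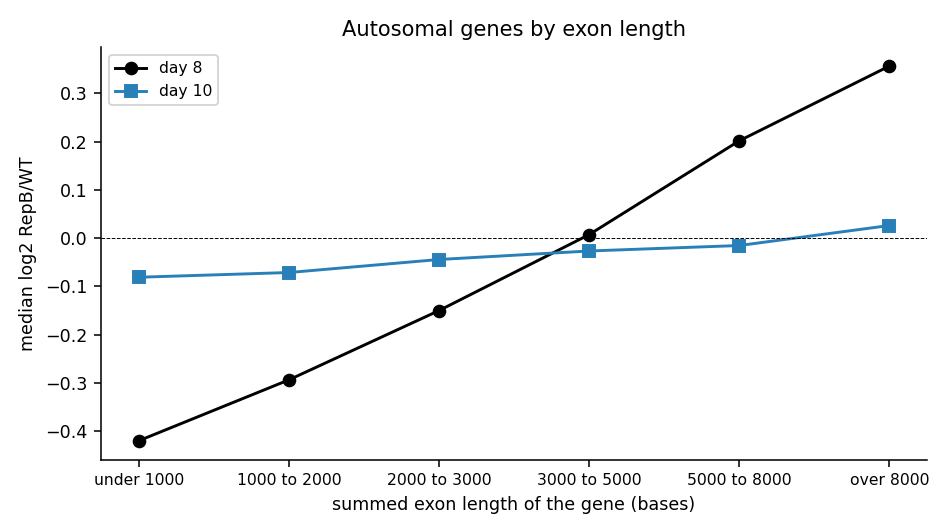
Median log2 RepB/WT of autosomal genes with a mean of at least 5 CPM, by summed exon length of the gene in bases, at day 8 (circles) and day 10 (squares). The day 8 line climbs from -0.42 to 0.36 across the length classes, and the day 10 line stays between -0.08 and 0.03.

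Xist itself was abundant in all 4 libraries. It stood at 819 CPM at day 8 and 983 CPM at day 10 in WT, and at 1309 and 1223 CPM in RepB. RepB lay above WT on both days, but the difference did not pass edgeR's test (log2 0.54 ± 0.17 SE, adjusted p = 0.238). Xist is long, with 17918 exon bases. With offsets for gene length in the same test, its log2 was 0.19 ± 0.12 (adjusted p = 0.551). The part of length in the difference was not tested further. Counts cover all exons of the gene, so this level does not check the edit of Repeat B.

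Genes were tested with edgeR's quasi-likelihood test with day as a block and Benjamini-Hochberg adjustment over 12833 genes, and every adjusted p below comes from this fit unless another is named. Of these genes 30 (0.234%) passed the threshold of 0.05, 14 higher in RepB (0.109%) and 16 lower (0.125%). At an unadjusted p under 0.05 there were 925 higher (7.21%) and 616 lower (4.8%). By plain direction, 3194 genes (24.9%) lay above WT on both days and 4692 (36.6%) below WT on both days. Counts of list members above or below WT on both days are to be read against these shares. At least 2-fold on both days, with a pseudocount of 0.5 CPM, there were 38 genes above WT (0.296%) and 47 below (0.366%). Each p measures how steady a difference was over 2 days of 1 course, with 1 residual degree of freedom and a spread largely shared across genes. The median log2 ratio over all genes tested was -0.0004. The number of calls hung on the scaling and on the block: with DESeq2's size factors in edgeR 72 were higher and 35 lower, by library totals alone 111 and 84, and without the day block 0 passed (173 at an unadjusted p under 0.05).

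Higher in RepB were lipoprotein and carrier genes of visceral endoderm, an embryonic globin, genes of residual pluripotency and several X-linked genes. Lower were transcription factors of anterior neural tissue, the cardiac myosins Myh6 and Myh7, Col2a1, the streak gene T and ribosomal protein genes. Of the 30 genes, 21 belong to one of the 46 gene lists read here, and 9 to none.

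**Figure D2:**
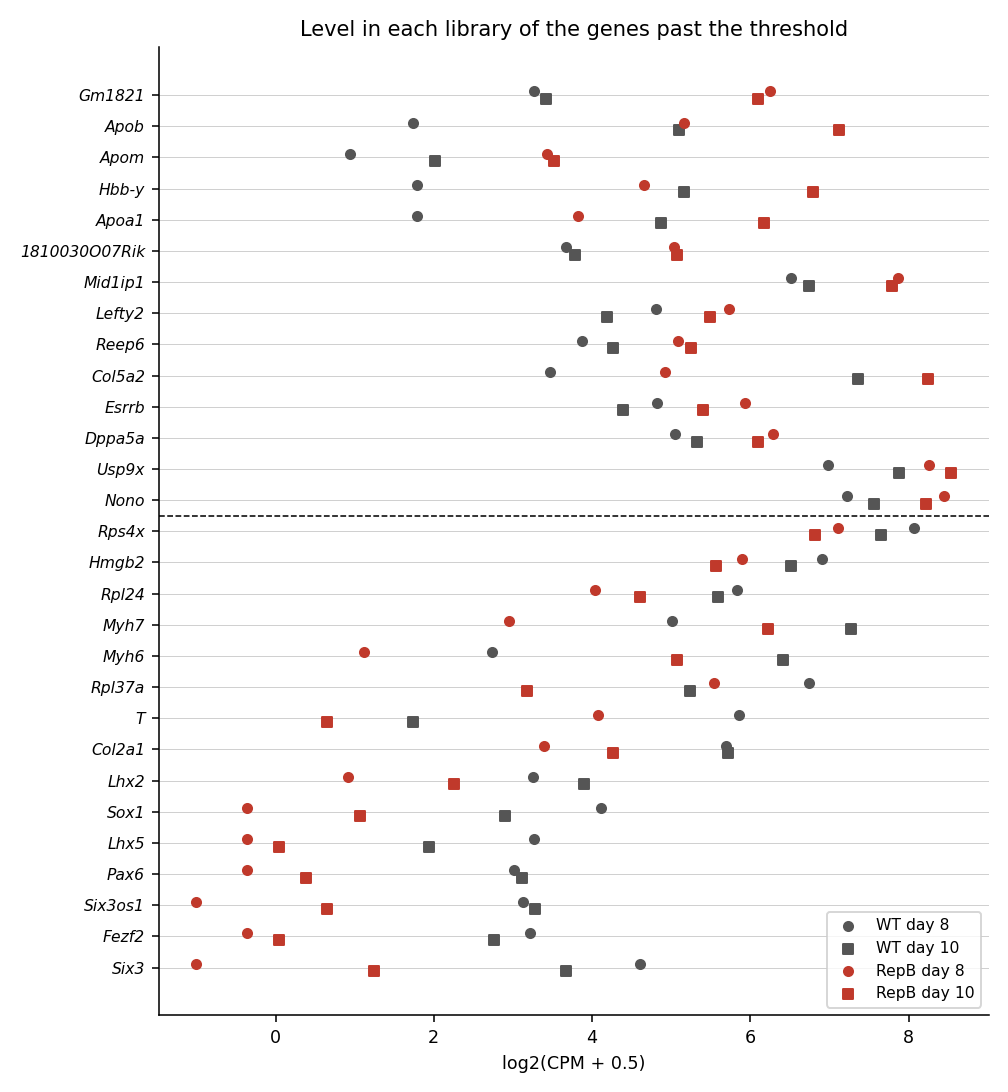
Level in the 4 libraries of the genes past the threshold, 1 left out, as log2(CPM + 0.5), with WT in grey, RepB in red, day 8 as circles and day 10 as squares. Genes above the dashed line were higher in RepB on both days and genes below it lower on both days, from Gm1821 (log2 2.93) at the top to Six3 (log2 -4.11) at the bottom.

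The largest falls past the threshold were in genes that pattern the anterior neural plate and eye field. Six3, a homeodomain factor of forebrain and eye, had 24.0 CPM at day 8 and 12.3 CPM at day 10 in WT, and 0 and 1.87 CPM in RepB. The fitted log2 was -4.11 ± 0.60 (SE), with an adjusted p of 0.025. At day 8 there were 186 counts in WT against 0 in RepB, that is at least 28.7-fold lower when 3 counts are taken as the floor of that RepB library. Both RepB libraries lay well below both WT libraries. Here and below, such a gap restates the libraries that gave the call and adds no support to it. The share of all genes with such a gap was not counted. Its neighbour on the opposite strand, the noncoding Six3os1, had 8.24 and 9.22 CPM in WT and 0 and 1.07 CPM in RepB (log2 -3.93 ± 0.61, adjusted p = 0.0325). The strand setting of the counting is not given in the sources used here, so reads of this pair may not be fully separated.

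Pax6, the eye and forebrain regulator, had 7.60 and 8.14 CPM in WT and 0.278 and 0.801 CPM in RepB, which is 59 and 83 counts against 1 and 3 (log2 -3.77 ± 0.54, adjusted p = 0.0231). Sox1, among the earliest genes of the neural plate, had 16.9 and 6.96 CPM in WT and 0.278 and 1.60 CPM in RepB (log2 -3.48 ± 0.57, adjusted p = 0.0359). The groups did not overlap for either gene. Fezf2, a forebrain zinc finger factor, had 68 and 64 counts in WT and 1 and 2 in RepB (log2 -4.08 ± 0.57, adjusted p = 0.0231). The LIM factor Lhx5 had 71 and 34 counts in WT and 1 and 2 in RepB (log2 -3.76 ± 0.64, adjusted p = 0.044). Lhx2, needed for eye and cortex, was lower by less, at 9.02 and 14.4 CPM in WT against 1.39 and 4.27 CPM in RepB (log2 -2.03 ± 0.36, adjusted p = 0.0478). In RepB each of these genes except Lhx2 rested on 0 to 7 counts per library, so the sizes of the fitted ratios are loose.

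Of the 31 genes on the neural progenitor list, 16 passed the filter on low counts. Among those, 5 were called lower (Six3, Pax6, Sox1, Lhx5 and Lhx2), 0 higher, 14 lay below WT on both days and 10 at least 2-fold below on both. The list's median log2 was -2.95, against -0.0004 for all genes, with -2.29 at day 8 and -1.74 at day 10. The filter keeps a gene with enough counts in the libraries of either genotype alone. Six3, Pax6, Sox1 and Lhx5 were kept through their WT counts, so the list's median and its counts below WT lean toward a fall. They are a description and not a test, and the same filter served every list. With offsets for gene length 1 of the 16 was called, and DESeq2 called 0, as it gave no adjusted p for any of the 5. Rax (0.0596) and Pax3 (0.0625), regulators of eye and dorsal neural tube, had adjusted p just over the threshold, with log2 of -3.34 and -4.52. The 4 most abundant members did not share the pattern. Sox2, which pluripotent cells also express, had 111 and 67.4 CPM in WT and 111 and 84.6 CPM in RepB. Nes, an intermediate filament of many progenitors, had 61.7 and 50.6 CPM in WT and 57.9 and 60.6 CPM in RepB. The fitted differences of Sox2 (0.21 ± 0.16), Nes (0.13 ± 0.17), Irx3 (-0.09 ± 0.17) and Msi1 (-0.26 ± 0.17) did not pass the test, with adjusted p of 0.573 to 0.866.

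Over the course, Six3 in WT was at 0.338, 0.763 and 8.36 CPM at days 5, 6 and 7, and at 0.378, 0 and 0.226 CPM in RepB. The neural progenitor list already had a median log2 of -1.18 over days 5 to 7, from the joint fit of the 10 libraries of days 5 to 10. That median covers the genes that passed the filter at days 8 and 10. The difference between the stages did not pass the test for Six3 (log2 -0.42, adjusted p = 0.943), Pax6 (-2.63, 0.124) or Sox1 (-1.11, 0.56). Genes of more mature neurons were nearer to WT: of 14 tested on the neuron list 0 were called (1 higher and 1 lower at an unadjusted p under 0.05), 3 lay above and 7 below WT on both days, and the median was -0.21. The neural crest and glia list (11 tested, 0 called) had a median of 0.23.

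To show the control regions of genes that moved together, the sequence around an annotated start of Six3 and Pax6 (lower in RepB) and of Apob and Hbb-y (higher) is printed below. For Pax6 the set lists 2 promoters, of which 1 is printed, and which of them these cells use was not tested. The sequences are RefSeq promoter windows of 300 bases on GRCm38.p6, given in the direction of the gene: Six3 at chr17:85620584-85620883 (plus strand), Pax6 at chr2:105668646-105668945 (plus), Apob at chr12:7977427-7977726 (plus) and Hbb-y at chr7:103853158-103853457 (minus). Capitals mark the core promoter words TATAAA and CCAAT on either strand, which were picked after these sequences had been seen. Of all 32851 windows in that set, 13.6% hold TATAAA and 37.4% hold CCAAT on either strand. The Apob window holds 1 TATAAA, the Hbb-y and Pax6 windows 1 CCAAT each, and the Six3 window 3 CCAAT. A match is a description of the letters and does not show a site in use.
Six3: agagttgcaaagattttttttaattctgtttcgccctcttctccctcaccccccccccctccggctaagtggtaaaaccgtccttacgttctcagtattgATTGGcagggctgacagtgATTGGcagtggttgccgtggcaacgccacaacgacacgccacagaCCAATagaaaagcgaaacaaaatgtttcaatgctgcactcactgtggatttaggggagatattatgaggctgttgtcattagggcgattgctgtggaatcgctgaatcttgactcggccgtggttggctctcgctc
Pax6: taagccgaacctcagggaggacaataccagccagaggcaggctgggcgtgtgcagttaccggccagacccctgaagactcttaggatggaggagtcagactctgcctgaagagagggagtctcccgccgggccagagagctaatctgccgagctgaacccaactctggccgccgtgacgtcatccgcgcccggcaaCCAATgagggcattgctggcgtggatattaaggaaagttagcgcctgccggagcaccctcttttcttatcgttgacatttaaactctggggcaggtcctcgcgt
Apob: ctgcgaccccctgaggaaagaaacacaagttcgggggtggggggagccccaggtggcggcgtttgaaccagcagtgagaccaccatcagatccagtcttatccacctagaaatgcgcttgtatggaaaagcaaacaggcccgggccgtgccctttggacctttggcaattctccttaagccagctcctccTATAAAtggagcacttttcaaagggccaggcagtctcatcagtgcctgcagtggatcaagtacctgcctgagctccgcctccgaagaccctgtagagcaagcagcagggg
Hbb-y: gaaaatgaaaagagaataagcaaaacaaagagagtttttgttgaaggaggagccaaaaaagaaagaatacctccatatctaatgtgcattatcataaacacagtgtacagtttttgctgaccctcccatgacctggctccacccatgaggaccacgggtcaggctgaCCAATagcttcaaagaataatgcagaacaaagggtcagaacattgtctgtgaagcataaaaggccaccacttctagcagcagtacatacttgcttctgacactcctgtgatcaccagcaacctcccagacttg

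Visceral endoderm is the extraembryonic layer that feeds the early embryo, and like liver it exports lipoproteins and carrier proteins. Apob, the structural protein of those particles, had 2.83 CPM at day 8 and 33.9 CPM at day 10 in WT, and 35.3 and 138 CPM in RepB (fitted log2 of 2.57 ± 0.29, adjusted p = 0.00515). RepB stood 12.5-fold above WT at day 8 and 4.08-fold at day 10, and its day 8 level of 35.3 CPM stood beside 33.9 CPM in WT at day 10. Apoa1, the main protein of high-density lipoprotein, had 2.96 and 28.7 CPM in WT and 13.6 and 71.8 CPM in RepB (log2 1.62 ± 0.24, adjusted p = 0.025). Apom, a small carrier of sphingosine phosphate, had 1.42 and 3.53 CPM in WT and 10.3 and 11.0 CPM in RepB (log2 2.15 ± 0.38, adjusted p = 0.0458). For Apom both RepB libraries lay above both WT libraries. For Apoa1 the ranges overlapped across days, and RepB was higher on each day.

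The visceral endoderm and liver list holds 29 genes, of which 14 passed the filter, and 5 were at 0 in all 4 libraries, among them Slc2a2, Fabp1 and Serpina1a. Of the 14, 3 were called higher and 0 lower, 13 lay above WT on both days and 5 at least 2-fold above on both. The median log2 was 0.93, with 1.12 at day 8 and 0.76 at day 10. Transthyretin (Ttr) had 25.1 and 58.8 CPM in WT and 55.6 and 94.5 CPM in RepB, and missed the threshold (log2 0.94 ± 0.18, adjusted p = 0.0625). Rbp4, the plasma carrier of retinol, had 10.4 and 90.1 CPM in WT and 21.7 and 152 CPM in RepB (0.91 ± 0.18, 0.0684). Lrp2, an endocytic receptor also made by other epithelia, was the exception, at 161 and 161 CPM in WT and 151 and 132 CPM in RepB. Albumin reached at most 0.556 CPM in any library, under the floor of 3 counts. The transcription factors of endoderm did not share the direction: of 16 tested 0 were called (2 higher and 1 lower at an unadjusted p under 0.05), 5 lay above and 3 below WT on both days, and the median was 0.16. The basement membrane list of parietal endoderm (14 tested, 0 called) had a median of 0.27.

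**Figure D3:**
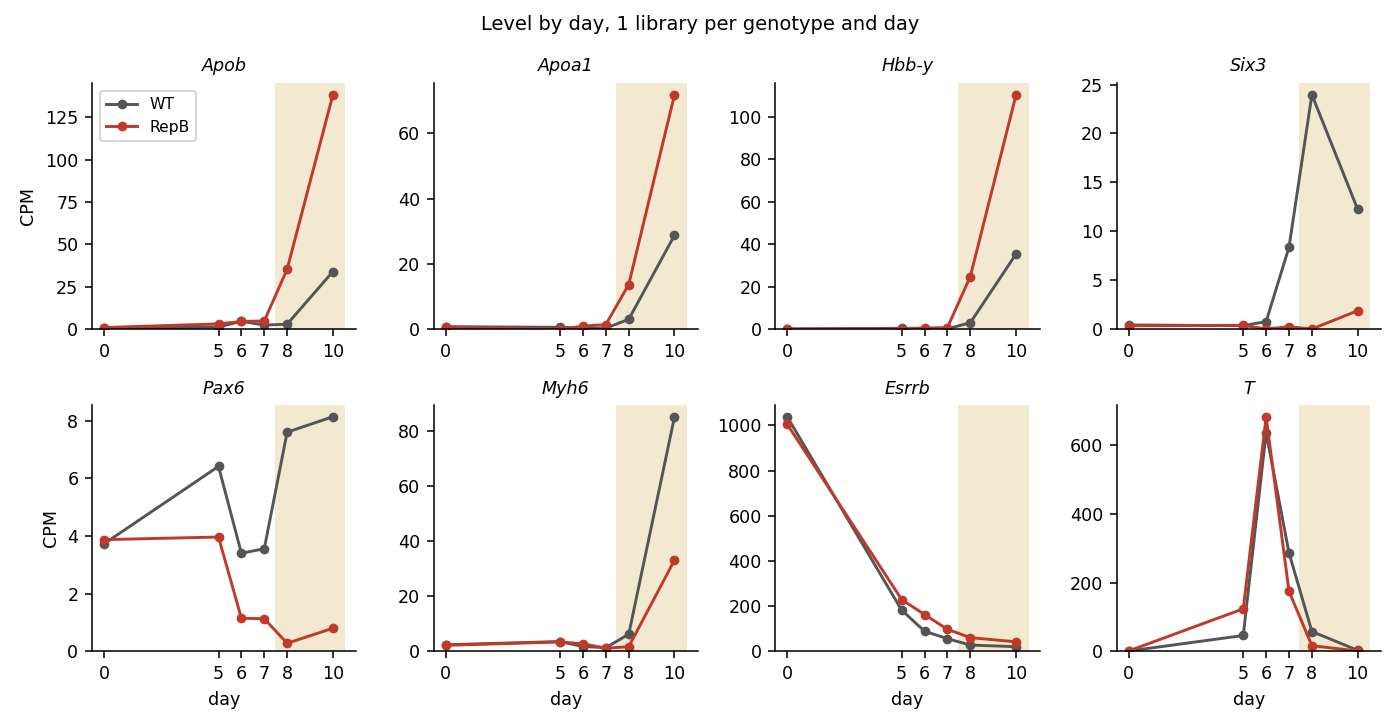
Level in CPM by day of differentiation for 8 genes past the threshold, WT in grey and RepB in red, with 1 library per point and days 8 and 10 shaded. Apob, Apoa1 and Hbb-y reached 138, 71.8 and 111 CPM in RepB at day 10 against 33.9, 28.7 and 35.4 CPM in WT. In WT, Myh6 climbed from 6.18 CPM at day 8 to 85.1 CPM at day 10. Six3 in WT had 24.0 and 12.3 CPM on these days, and Pax6 7.60 and 8.14 CPM.

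Embryonic globins mark the primitive red cells that arise next to visceral endoderm. Hbb-y, an embryonic beta globin, had 2.96 and 35.4 CPM in WT and 24.8 and 111 CPM in RepB (log2 2.12 ± 0.27, adjusted p = 0.0107). It was 8.36-fold higher at day 8 and 3.12-fold higher at day 10. Globin genes are close relatives, so reads may be split among them. Hba-x, the embryonic alpha globin, had 51.8 and 202 CPM in WT and 397 and 333 CPM in RepB (1.84 ± 0.38, adjusted p = 0.0757). Hbb-bh1, another embryonic beta globin, had 35.0 and 130 CPM in WT and 272 and 169 CPM in RepB (1.67 ± 0.44, 0.171). Both were far above WT at day 8 and nearer to it at day 10. In WT these globins were higher at day 10 than at day 8, whereas in RepB Hba-x and Hbb-bh1 were higher at day 8.

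The red cell regulators Gata1 and Tal1 had the same shape. Gata1 had 3.86 and 4.71 CPM in WT and 26.99 and 8.01 CPM in RepB (1.89 ± 0.41, adjusted p = 0.0927), and Tal1 6.44 and 11.3 CPM in WT and 31.4 and 15.0 CPM in RepB. Alas2, the red cell enzyme of heme synthesis, had 3.35 and 10.5 CPM in WT and 19.8 and 22.4 CPM in RepB (1.74 ± 0.33, adjusted p = 0.0596). Of 22 genes on the blood and globin list 18 were tested, 1 was called higher (Hbb-y) and 0 lower, and 16 lay above WT on both days. The median log2 was 1.41, from 2.18 at day 8 to 0.38 at day 10. The adult globins Hba-a1 and Hbb-b1 were at 0 in all 4 libraries. Macrophage and leukocyte genes were near the floor, with 3 of 16 tested and a summed level of 17.7 to 26.4 CPM in WT and 15.3 to 32.6 CPM in RepB.

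The endothelial list had no call but a common direction. Of 25 genes tested 0 were called, at an unadjusted p under 0.05 there were 15.0 higher and 0.0 lower, 21 lay above WT on both days and 1 below, and the median log2 was 0.76. Cdh5, the cadherin of vessel walls, had 5.93 and 83.5 CPM in WT and 32.0 and 136 CPM in RepB (1.37 ± 0.30, adjusted p = 0.0984). Plvap, a protein of endothelial fenestrae, had 4.12 and 40.5 CPM in WT and 10.3 and 74.8 CPM in RepB (1.05 ± 0.21, 0.0718). Kdr, a receptor for vascular growth factor, differed by less, at 59.8 and 96.6 CPM in WT and 86.5 and 102 CPM in RepB.

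Heart muscle went the other way. Myh6, the alpha myosin heavy chain of heart, had 6.18 CPM at day 8 and 85.1 CPM at day 10 in WT, and 1.67 and 33.1 CPM in RepB (log2 -1.42 ± 0.23, adjusted p = 0.0359). Myh7, the beta myosin heavy chain that lies beside Myh6 on chromosome 14, had 31.8 and 154 CPM in WT and 7.23 and 74.2 CPM in RepB (-1.38 ± 0.23, 0.0359). On each day WT held 2.08 to 4.40 times the RepB level of these myosins, and both lines gained them from day 8 to day 10. The genes are near-identical in places, so reads may be shared between them. Of 26 genes on the sarcomere and conduction list 20 were tested, 2 were called lower and 0 higher, 15 lay below WT on both days and 1 above, and the median log2 was -0.77. Actc1, cardiac actin, had 9.53 and 141 CPM in WT and 5.29 and 63.0 CPM in RepB (-1.05 ± 0.20, adjusted p = 0.0615). Tnnt2, cardiac troponin T, had 17.5 and 72.0 CPM in WT and 10.3 and 29.4 CPM in RepB (-1.05 ± 0.21, 0.0728). The most abundant members, which other cells use too, stayed near 0: Tpm1 at -0.14 ± 0.16 and Atp2a2 at -0.03 ± 0.16.

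Cardiac transcription factors were closer to WT, with 15 tested, 0 called (0 higher and 3 lower at an unadjusted p under 0.05) and a median of -0.24. On both days 7 lay below WT (46.67%, against 36.6% of all genes tested) and 1 above (6.667%, against 24.9%). Smyd1, a muscle-restricted methyltransferase on that list, had 18.3 and 53.4 CPM in WT and 8.35 and 23.8 CPM in RepB (-1.11 ± 0.21, adjusted p = 0.0596). Hand1, Hand2, Gata6 and Tbx20, its most abundant members, had fitted log2 of 0.10 ± 0.22, 0.04 ± 0.16, 0.15 ± 0.18 and 0.32 ± 0.24. Over days 5 to 7 the sarcomere list had a median of 0.15. The test of the stage difference gave an adjusted p of 0.0867 for Myh6 (log2 -1.58) and 0.245 for Myh7 (-0.97). Smooth muscle genes (17 tested, 0 called, median 0.15) and skeletal muscle genes (5 tested, 0 called, median -0.03) had medians near 0.

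**Figure D4:**
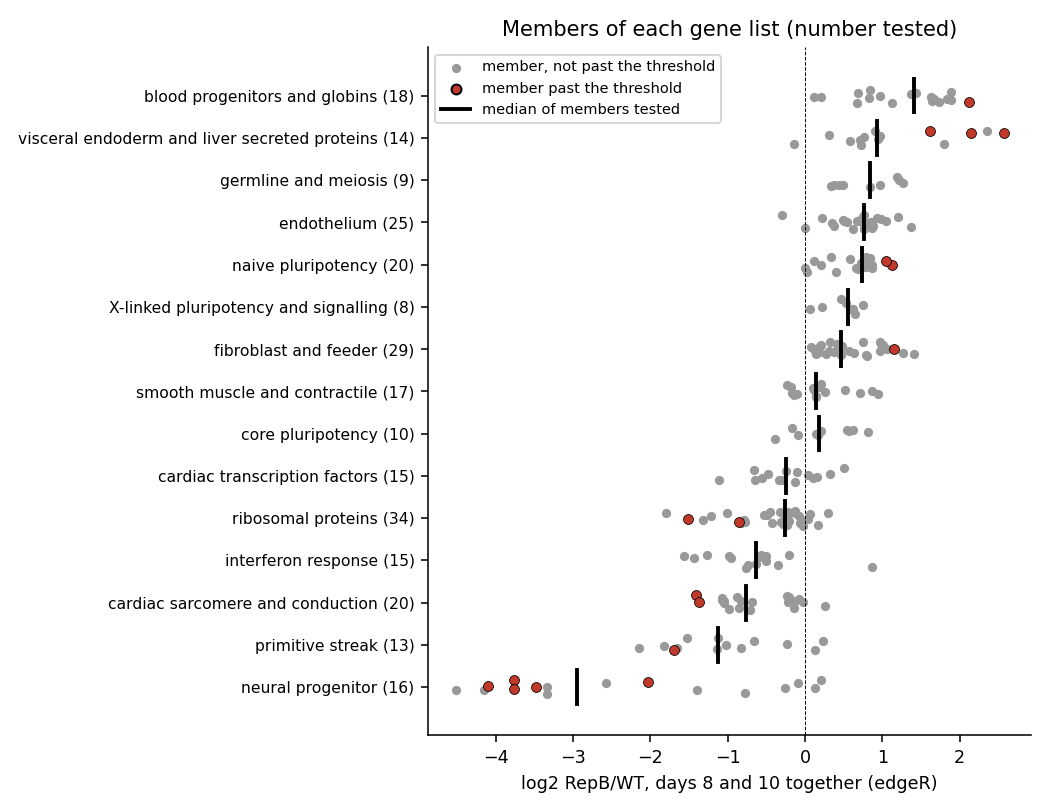
Fitted log2 RepB/WT over days 8 and 10 for the tested members of 15 gene lists, with red points past the threshold, grey points not, and a bar at each list's median. The medians run from -2.95 for the neural progenitor list to 1.41 for the blood and globin list.

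The primitive streak is the transient stage through which mesoderm and endoderm form, and its genes were leaving the culture by these days. T, the Brachyury factor, had peaked at day 6 in both lines, at 637 CPM (WT) and 682 CPM (RepB). It stood at 57.7 and 2.84 CPM in WT at days 8 and 10 and at 16.4 and 1.07 CPM in RepB (log2 -1.69 ± 0.28, adjusted p = 0.0359). Eomes, another streak factor, had 121 and 7.65 CPM in WT and 36.2 and 7.74 CPM in RepB, lower at day 8 with equal levels at day 10. Evx1 had 83.2 and 16.2 CPM in WT and 27.3 and 11.2 CPM in RepB (-1.12 ± 0.25, adjusted p = 0.0984). Of 17 streak genes 13 were tested, 1 was called lower and 0 higher. On both days 6 lay below WT (46.15%, against 36.6% of all genes tested) and 0 above (against 24.9%). The median was -1.59 at day 8 and -0.08 at day 10. Over days 5 to 7 the same list had a median of 0.24.

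Pluripotency genes stood far below day 0 in both lines, and several were higher in RepB. Esrrb, a nuclear receptor of the naive ES cell network, had 27.7 and 20.5 CPM in WT and 60.7 and 41.9 CPM in RepB, from 1038 and 1005 CPM at day 0 (log2 1.13 ± 0.18, adjusted p = 0.0359). Dppa5a, an RNA-binding protein of ES cells, had 32.7 and 39.7 CPM in WT and 77.6 and 68.1 CPM in RepB (1.05 ± 0.18, 0.0458). Lefty2, a secreted inhibitor of Nodal signalling, had 27.6 and 17.8 CPM in WT and 52.6 and 44.6 CPM in RepB (1.17 ± 0.19, 0.0359). For these 3 genes both RepB libraries lay above both WT libraries, which restates the values that were tested.

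Of the 21 naive genes 20 were tested, 2 were called higher and 0 lower, and 16 lay above WT on both days with 0 below. Their median log2 was 0.74, with 0.68 over days 5 to 7. Zfp42 (0.87 ± 0.18, adjusted p = 0.0733), Klf2 (0.78 ± 0.18, 0.107) and Nanog (0.69 ± 0.17, 0.142) were higher on both days without passing the test. Klf4 (0.00 ± 0.17) and Tbx3 (0.03 ± 0.16) did not move with them. Core factors were mixed: of 10 tested 0 were called, 4 lay above and 3 below WT on both days, and the median was 0.18. Lefty2 was the 1 call among 16 epiblast genes (median -0.07) and among 37 genes of the BMP and TGF-beta pathway (median -0.04, 7 above and 15 below WT on both days). Germline genes (9 of 25 tested, 0 called) had a median of 0.84 and 7 above WT on both days, at levels of at most 17.3 CPM; their summed level was 58.2 to 68.3 CPM in WT and 103 to 108 CPM in RepB.

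**Figure D5:**
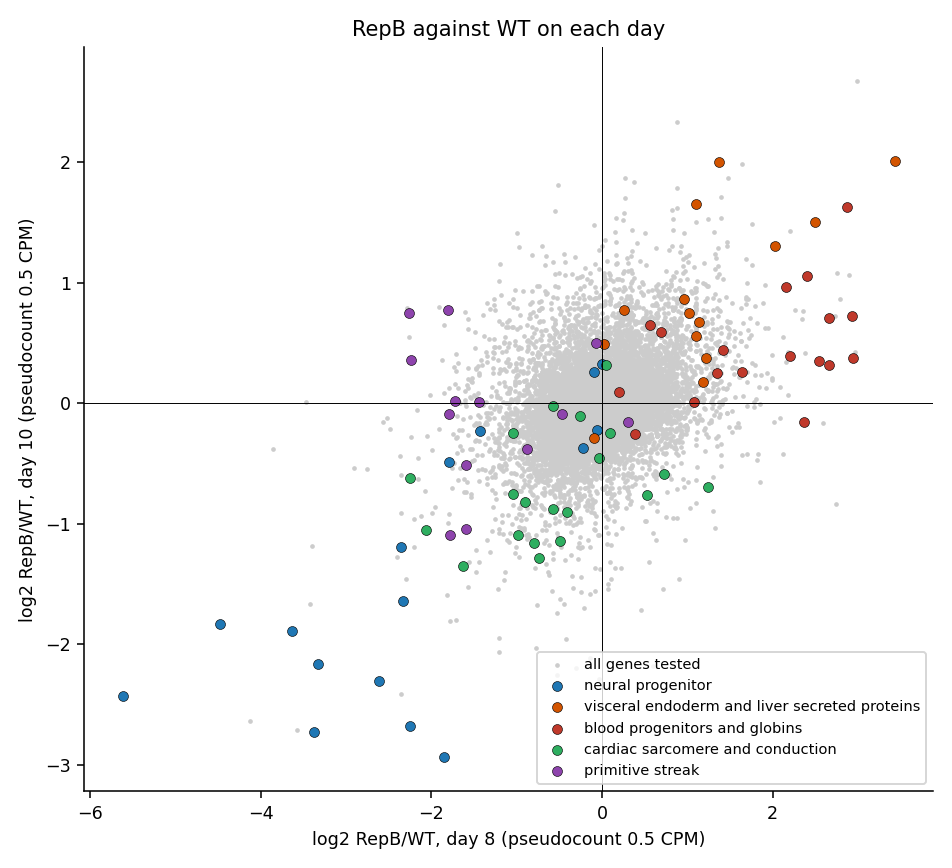
Log2 RepB/WT at day 8 against day 10, with a pseudocount of 0.5 CPM, for all 12833 genes tested (grey) and for the members of 5 lists (colours). Neural progenitor genes lie low on both days, blood genes lie far to the right at day 8 with a median of 0.38 at day 10, and streak genes lie to the left at day 8 with a median of -0.08 at day 10.

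Connective tissue genes, which also mark feeder fibroblasts, leaned upward. Col5a2, a minor fibrillar collagen, had 10.6 and 164 CPM in WT and 29.8 and 302 CPM in RepB (log2 1.16 ± 0.19, adjusted p = 0.0359). Col1a1, the main fibrillar collagen, had 962 and 3434 CPM in WT and 1721 and 5483 CPM in RepB (0.80 ± 0.17, 0.0853). Col3a1 had 39.0 and 1369 CPM in WT and 148 and 2112 CPM in RepB (1.27 ± 0.26, 0.0708). Of 33 listed genes 29 were tested, 1 was called higher and 0 lower, 23 lay above WT on both days and 0 below, and the median was 0.46. The summed level of the list was 8414 and 23110 CPM in WT and 11810 and 30010 CPM in RepB, with Dpt at 0 in all 4 libraries. Feeders had been removed before differentiation, per the labels, and Col1a1 had passed through 18.2 CPM (WT) and 15.7 CPM (RepB) at day 5. Whether leftover fibroblasts had a part in this was not tested.

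Col2a1, the collagen of cartilage and notochord, was lower, at 51.3 and 52.3 CPM in WT and 10.0 and 18.7 CPM in RepB (log2 -1.83 ± 0.23, adjusted p = 0.0107). It was the 1 call among 12 cartilage and bone genes tested, whose median was 0.34. Sox9, its known activator, had 28.2 and 17.1 CPM in WT and 22.8 and 14.4 CPM in RepB and did not pass the test. Hmgb2, a chromatin protein of dividing cells, had 120 and 91.2 CPM in WT and 59.3 and 47.0 CPM in RepB (-0.94 ± 0.16, 0.0458). Among 29 cell cycle genes 0 were called (1 higher and 3 lower at an unadjusted p under 0.05), with a median of -0.01. On both days 17 lay below WT (58.6%, against 36.6% of all genes tested) and 3 above (10.3%, against 24.9%). Reep6, a protein of the endoplasmic reticulum, had 14.2 and 18.7 CPM in WT and 33.4 and 37.6 CPM in RepB (1.16 ± 0.20, 0.0458).

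Several ribosomal protein genes were called lower. Rpl37a had 107 and 37.3 CPM in WT and 45.9 and 8.54 CPM in RepB (log2 -1.51 ± 0.22, adjusted p = 0.025). Rpl24 (-1.35 ± 0.22, 0.0359) and the X-linked Rps4x (-0.85 ± 0.15, 0.0484) were lower too. These genes have many near-identical copies elsewhere in the genome, so their counts are uncertain, and so are those of Gm1821, the largest rise, at 9.15 and 10.2 CPM in WT and 75.7 and 67.8 CPM in RepB (2.93 ± 0.20, 6e-05). Of the 34 genes tested on the ribosomal protein list, which leaves out Rpl24, 2 were called lower and 0 higher, 24 lay below WT on both days and the median was -0.26. With offsets for gene length the median of this list was -0.04 and 0 of its members were called. No member of the naive, sarcomere or streak lists was called with these offsets either. Interferon genes had no call among 15 tested (10.0 at an unadjusted p under 0.05, all lower), with a median of -0.63, 12 below WT on both days, and -1.21 at day 8 against -0.24 at day 10. Isg15, a ubiquitin-like product of that response, had 29.5 and 4.31 CPM in WT and 5.84 and 3.47 CPM in RepB.

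The X chromosome is where Xist acts, and there 4 of 470 genes tested were called higher and 1 lower (Rps4x), against 0.109% and 0.125% of all genes. Above WT on both days were 247 X-linked genes, 52.5% of them against 24.9% of all genes. Mid1ip1, a regulator of lipid synthesis, had 90.7 and 107 CPM in WT and 232 and 221 CPM in RepB (log2 1.25 ± 0.16, adjusted p = 0.0107). Usp9x, a deubiquitinase, had 126 and 235 CPM in WT and 307 and 372 CPM in RepB (1.02 ± 0.18, 0.0458). Nono, an RNA-binding protein, had 148 and 188 CPM in WT and 350 and 298 CPM in RepB (0.99 ± 0.17, 0.0458). The noncoding 1810030O07Rik had 12.2 and 13.2 CPM in WT and 32.3 and 33.1 CPM in RepB (1.40 ± 0.21, 0.025). In each of them both RepB libraries lay above both WT libraries, which restates the values that were tested. By the first exon on mm9, Usp9x lies at X:12648624-12648859, Mid1ip1 at X:10294491-10294830 and Nono at X:98624990-98625101, all on the plus strand. Of the X-linked calls, Usp9x and 1810030O07Rik are on the list of genes that escape X-inactivation, where 15 were tested and the median was 0.33. Escape is the label of that list, and whether these genes escape in these cells was not tested.

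The X-linked genes as a whole lay above the autosomes: the gap between their median log2 ratios was 0.25 at day 8 and 0.24 at day 10, a mean of 0.24 ± 0.006 (SD, n = 2 days; 493 X-linked and 12939 autosomal genes with a mean of at least 1 CPM), or 1.18-fold. Over days 5 to 7 it had been 0.19 to 0.21, and at day 0 -0.07. A permutation over 2 days cannot reach 0.05, and none was run. The 8 X-linked pluripotency and signalling genes all lay above WT on both days with 0 called and a median of 0.56 (5 higher at an unadjusted p under 0.05). Amot, a scaffold of the Hippo pathway, had 423 and 353 CPM in WT and 846 and 369 CPM in RepB, so the gap was at day 8.

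Allelic counts set these levels beside the parental chromosomes. Summed over X-linked genes the CAST/Ei (cas) share was 81.9% (95% exact interval 81.5 to 82.3) at day 8 and 84.3% (84.0 to 84.6) at day 10 in WT, and 67.7% (67.1 to 68.2) and 66.2% (65.6 to 66.8) in RepB. For Usp9x it was 87.9% and 91.6% in WT and 64.6% and 64.7% in RepB, from 212 to 440 allelic counts. Although Usp9x is on the escape list, its WT share lay above that of the summed X-linked genes on both days. The other called gene of that list, 1810030O07Rik, gave 81.5% cas (61.9 to 93.7) in WT at day 10, from 27 allelic counts. For Nono the cas share was 65.4% and 61.9% in WT and 52.7% and 48.2% in RepB. Of the autosomal genes higher in RepB, some had like shares in both lines. At day 10 Apoa1 gave 48.2% cas in WT and 48.3% in RepB, Hbb-y 62.3% and 60.6%, and Dppa5a 41.8% and 39.2%, each within the other's interval. Lefty2 was an exception, with 2.67% (0.325 to 9.30) in WT and 13.2% (5.48 to 25.3) in RepB at day 10, from 2 and 7 cas counts, and 8.47% and 4.65% at day 8. Apob was read almost wholly from the 129/Sv/Jae (mus) allele in both lines (0% and 0.935% cas at day 10). Intervals cover counting error only.

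Most other programmes showed no call. Of the 46 lists, 33 had no member past the threshold, and 12 had a median of 0.5 or more in size. Signalling lists had medians near 0: Wnt -0.12 (35 tested), FGF and ERK -0.07 (27), Notch 0.22 (20), retinoic acid -0.31 (13) and Hedgehog 0.15 (13), with 0 called in each. Position and mesoderm lists also had 0 calls, with medians of 0.18 for Hox genes (26 tested), -0.60 for paraxial mesoderm (8), -0.19 for lateral plate and limb bud (18) and -0.10 for intermediate mesoderm (10). The caudal list (7 tested, median -0.57) held T as its 1 call. Epithelial lists were near 0, with -0.02 for surface ectoderm (14), 0.13 for trophoblast (14) and -0.01 for gut epithelium (13). Polycomb subunits, the chromatin repressors tied to Xist, had a median of 0.01 over 32 genes, 11 above and 9 below WT on both days. Genes of the X-inactivation centre other than Xist included Tsix, at 15.1 and 7.06 CPM in WT and 7.23 and 4.54 CPM in RepB, uncertain because it overlaps Xist on the other strand. Imprinted genes (25 tested), p53 targets (17), hypoxia and glycolysis (23), stress genes (22) and mesenchymal transition genes (17) had 0 calls and medians of 0.15, -0.02, 0.03, 0.11 and 0.07.

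Whether days 8 and 10 differed from days 5 to 7 was tested in 1 fit of the 10 libraries, with day as a block and the RepB/WT difference in each stage. Of 13955 genes, 3 (0.0215%) passed, all with a more positive RepB/WT ratio at days 8 and 10 (0.0215%) and 0 with a more negative one (0%). At an unadjusted p under 0.05 there were 2419 in either direction, and DESeq2 called 96 more positive and 17 more negative. Irs4, an X-linked adaptor of insulin signalling, had 20.2 to 32.5 CPM in WT and 9.32 to 13.8 CPM in RepB over days 5 to 7, then 6.70 and 6.08 CPM in WT and 13.1 and 15.2 CPM in RepB. RepB was below WT on each of the 3 early days and above it on both late days (log2 difference 2.57 ± 0.29, adjusted p = 0.00574). Of the genes called at days 8 and 10, Mid1ip1 and Reep6 came nearest in this test (adjusted p = 0.0638 for each, log2 difference 1.24 and 1.09): over days 5 to 7 their log2 RepB/WT was 0.02 and 0.08.

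When the spread was taken from the 10 libraries of days 5 to 10, 22 of the 30 calls were kept with both days. Lhx5 (adjusted p = 0.0857), Lhx2 (0.0511), Dppa5a (0.157), T (0.16), Rpl37a (0.0511), Hmgb2 (0.0533) and Rps4x (0.117) were among those lost. In the same fit 23 of the 30 were kept without day 10 and 7 without day 8: Apob, Hbb-y, Lefty2, Col5a2, Col2a1, Myh6 and Myh7, with adjusted p of 0.00719 to 0.0348. All 30 kept their sign in each of these fits. From day 10 alone, log2 was 1.05 for Esrrb (adjusted p = 0.146), -3.30 for Pax6 (0.119), -2.69 for Six3 (0.203) and 1.34 for Apoa1 (0.188). Among list members, day 10 alone left 0 calls in the neural, naive, streak, endothelial and ribosomal lists, 1 each in the visceral endoderm, blood and fibroblast lists, and 2 in the sarcomere list. With offsets for gene length, 12 of the 30 were kept and all 30 kept their sign. Among them were Gm1821, Apob, Hbb-y, 1810030O07Rik, Mid1ip1, Lefty2, Col5a2, Fezf2, Pax6, Col2a1 and Hmgb2.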

How the data were processed

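Total RNA was read as polyA libraries of a directional kit, per the labels' protocols, with 1 library per genotype and day. The authors deposited read counts per gene, total and by parental allele, with the summed exon length of each gene; 6 count columns without a matching sample were not used. The submitters' processing notes name Novoalign, SAMtools, TopHat, bedtools, featureCounts and mm9, and the strand setting is not given in the sources used here. Levels (CPM) are counts per 1000000 counts of the library.

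RepB was compared with WT by edgeR 4.0.16 (R 4.3.3) with TMM scaling, filterByExpr and day as a block, libraries being paired by their labelled day. SE is the log2 fold change over the root of F. The stage difference came from a further fit over days 5 to 10, with 10 libraries. The spread is between days, with no replicate cultures. DESeq2 1.42.0, limma 3.58.1 and the other alternatives are in the closing section. The text names up to 15 called genes per direction whose average log2 CPM is 2 or more, and the 4 list members of highest CPM; Gm1821, 1810030O07Rik and other named members were picked after their values were seen. The members and lists were chosen with earlier results of these data known. Some items are not reported here.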

Additional observations from a re-analysis of the deposited data

Results flagged for a closer look

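The RepB/WT ratio differed between days 8 and 10 and days 5 to 7 for 3 genes by edgeR's quasi-likelihood test of that difference. Irs4, an X-linked adaptor of insulin signalling, had a log2 difference of 2.57 ± 0.29 SE (adjusted p = 0.00574) and kept its direction under every alternative run, from 2.35 to 2.71. Syne2, a nuclear envelope protein of 21718 exon bases, had a log2 difference of 1.095 ± 0.15 (adjusted p = 0.0455). It stood at 109, 113 and 111 CPM in WT and at 67.8, 60.8 and 67.3 CPM in RepB over days 5 to 7, and at 46.9 and 84.4 CPM in WT and 58.4 and 100 CPM in RepB at days 8 and 10. With offsets for gene length its difference was 0.53 (adjusted p = 0.205), and the part of length in it was not tested further. Hist1h2an, a replication histone gene with near-identical copies, had a log2 difference of 12.64 (adjusted p = 0.00574). That value rests on single libraries: 41.8 and 32.9 CPM in WT at days 5 and 7 and 40.6 CPM in RepB at day 8, against at most 0.430 CPM in each of the other 7. Without day 8 its difference was 5.96 (adjusted p = 0.714).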

How the results depend on the processing

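Genes called higher and lower in RepB numbered 14 and 16 as reported. They numbered 72 and 35 with DESeq2's size factors, 111 and 84 by library totals, 162 and 95 with a minimum mean of 1 CPM, 251 and 152 unfiltered, 22 and 8 by DESeq2, 90 and 39 by limma-voom, 104 and 65 after thinning to equal depth, and 104 and 44 with the spread of 10 libraries. Without the replicate block (libraries are paired by day) they were 0 and 0. Leaving out the day 8 or the day 10 pair gave 8 to 834 higher and 5 to 309 lower, the remaining pair being assumed to vary like the earlier days. Offsets for gene length, chosen after seeing the data, gave 11 and 5. The causes were not tested. The 30 calls kept their sign under each alternative (29 after thinning, the other not being tested). The stage difference had 3 and 0 calls as reported, 96 and 17 by DESeq2, 1 by limma-voom, 530 and 279 with no filter, 0 without the replicate block, 1 after thinning, and 0 to 877 higher and 0 to 322 lower with a day left out. Without the day 7 pair no gene passed, and without the day 10 pair 877 did so upward. The X-linked median less the autosomal one (0.24) was 0.21 and 0.25 with pseudocounts of 2 and 0.1 CPM, 0.16 with no filter, 0.25 with a minimum of 5 CPM and 0.23 with the length trend removed. Depth sets a floor of 3 counts at 0.801 to 0.835 CPM in RepB. For 9 of the 30 calls DESeq2 gave no adjusted p.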
